A study of Mus musculus with 11 samples.

Results

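The genes described here encode the proteasome and the ubiquitin-conjugating (E2) enzymes of the mouse. They were chosen by symbol: every gene whose symbol begins with Psma to Psmg and a digit, or with Ube2, and that had a probe assigned to that gene alone. The rule found 85 genes of 19938 measured: 19 subunits of the 20S core particle, 29 regulators of the core, 34 E2 enzymes and 3 genes that share only the name. The last are Psmc3ip and Psme3ip1, which encode partner proteins, and Ube2cbp, which encodes an E2-binding protein. Ube2m and Psme2b are not analysed here.

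Ubiquitin is activated by an E1 enzyme, handed to the catalytic cysteine of an E2 enzyme and joined to a target protein with the help of an E3 ligase. Chains of ubiquitin take the target to the 26S proteasome, a barrel of alpha and beta rings (the 20S core) capped by the 19S regulator, whose ATPases unfold the target and feed it into the barrel. Dividing embryonic cells depend on this route to remove cyclins and other short-lived regulators, and proteasome subunits are usually counted among the housekeeping genes.

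The study set out to profile 3 tissues of the mouse embryo at embryonic day 8.5, when cranial neural crest cells leave the edge of the neural plate. Neuroepithelium had 3 arrays (NE1 to NE3), neural crest had 5 (NC1 to NC5) and paraxial mesoderm had 3 (PM1 to PM3), all from outbred CD1 embryos, for which the labels name no treatment, mutation or transgene. Tissue was cut by laser capture microdissection from frozen sections, and its RNA was amplified before hybridisation to an Affymetrix array. The series' text speaks of single cells, but how many cells, embryos or litters lie behind an array is not stated in the labels. The p-values therefore cover the spread among arrays alone, which may be technical, and fewer cells of a type cannot be told apart from less RNA per cell.

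Each deposited value is a linear ratio. A gene's ratio of 1.00 means that its array equals the reference of that probe. Judged by the values, that reference was close to the probe's median over arrays. The ratios therefore say how a gene varied between arrays and nothing of its level against another gene. Below, "low" means at least 4-fold under the reference (a ratio of 0.25 or less), "high" means at least 4-fold over it, and "near the reference" means within 2-fold. Depth has no meaning for arrays, and the number of arrays limits the precision.

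The arrays themselves differed over all genes. NC1, NC4 and PM3 had between 381 and 410 genes high, and the other 8 arrays had between 580 and 1617. Among markers of the tissues and of cells that lie beside them, all 6 primitive erythroid genes measured were high on PM1 (summed ratio 649) and 0 on the other 10 arrays (5.76 to 6.68). Of 10 surface ectoderm genes, between 5 and 6 were high on the NE arrays (summed ratio 238 to 338) and 6 on PM2 (355), with 1 on NC3 (45.1), 1 on PM3 (39.5) and 0 on PM1 and the other crest arrays (8.42 to 10.03). Of 9 neural crest genes, 1, 4, 2, 1 and 5 were high on NC1 to NC5 (summed ratio 61.0 to 154), with 1 each on NE2 and NE3 and 0 on NE1 and the PM arrays (7.75 to 30.1 on those 6 arrays). None of 9 paraxial mesoderm genes was high on any array, and none of 7 neural genes was high on an NE array. Endothelial genes were high on none of the 11 arrays (0 of 5). Since ratios carry no level, this does not show that a marker was absent. The part of these differences in the results below was not tested.

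The promoters of 3 genes are shown to place the genes described below in their regulatory setting. Psmb5 and Psmb6 encode catalytic beta subunits of which the first was very low on 1 array and the second stayed near the reference on all 11, and Ube2c encodes the E2 of mitotic exit. Each stretch is 100 bases from the RefSeq promoter table (GRCm38.p6), 5′ to 3′ on the strand of the gene, with the motif matches in capitals.
Psmb5 (chr14:54617996-54618095, minus strand): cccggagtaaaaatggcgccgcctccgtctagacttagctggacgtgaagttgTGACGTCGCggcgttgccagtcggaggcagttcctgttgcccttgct
Psmb6 (chr11:70525257-70525356, plus strand): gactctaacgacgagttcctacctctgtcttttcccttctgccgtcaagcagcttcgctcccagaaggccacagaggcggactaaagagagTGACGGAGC
Ube2c (chr2:164769829-164769928, plus strand): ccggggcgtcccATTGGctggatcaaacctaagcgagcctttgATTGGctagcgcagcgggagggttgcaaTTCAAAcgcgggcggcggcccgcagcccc

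The capitals in Psmb5 and Psmb6 mark the core of the antioxidant response element, TGACNNNGC, bound by factors such as Nfe2l1, the activator of proteasome genes. In Ube2c they mark 2 copies of the CCAAT box, here on the other strand as ATTGG, and 1 cell cycle homology region, TTTGAA, here as TTCAAA. Both strands were searched from 250 bases before to 50 after the start of transcription, in 71 of the 85 genes and in 27025 genes in all. TGACNNNGC was found in 10 of the 71 promoters (14.1%) and in 12.5% of all promoters. CCAAT was found in 8 of 15 core subunit promoters (53.3%), 6 of 25 regulator promoters (24.0%), 9 of 28 E2 promoters (32.1%) and 37.9% of all promoters. TTTGAA was found in none of the 15 core subunit promoters, in 3 of 25 regulator promoters, in 4 of 28 E2 promoters and in 18.1% of all promoters. A match in these letters is a description and not a binding site.

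The proteasome and E2 genes varied far more between arrays than most genes did, and the variation ran across the tissues. Of the 85 genes, 44 (51.8%) were low on at least 1 array, 34 (40.0%) were high on at least 1, and 15 (17.6%) stayed near the reference on all 11. Over all genes the same shares were 4.77%, 21.7% and 71.8%. The median span between a gene's lowest and highest array was 5.60 on the log2 scale for the 85 genes and 0.42 for all genes. Lists of other genes of the pathway had median spans from 0.52 (E1 enzymes) to 4.91 (partners of the proteasome). The files hold no detection call, so unexpressed genes could not be set apart among all genes, and their part in this contrast was not tested. The 3 classes differed in direction. Core subunits were seldom high (1 of 19) and often low (12 of 19), regulators went both ways (16 of 29 high and 21 of 29 low, 8 of them both), and E2 enzymes also went both ways (15 of 34 high and 11 of 34 low, 4 of them both). These class counts are a description and were not tested.

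**Figure D1:**
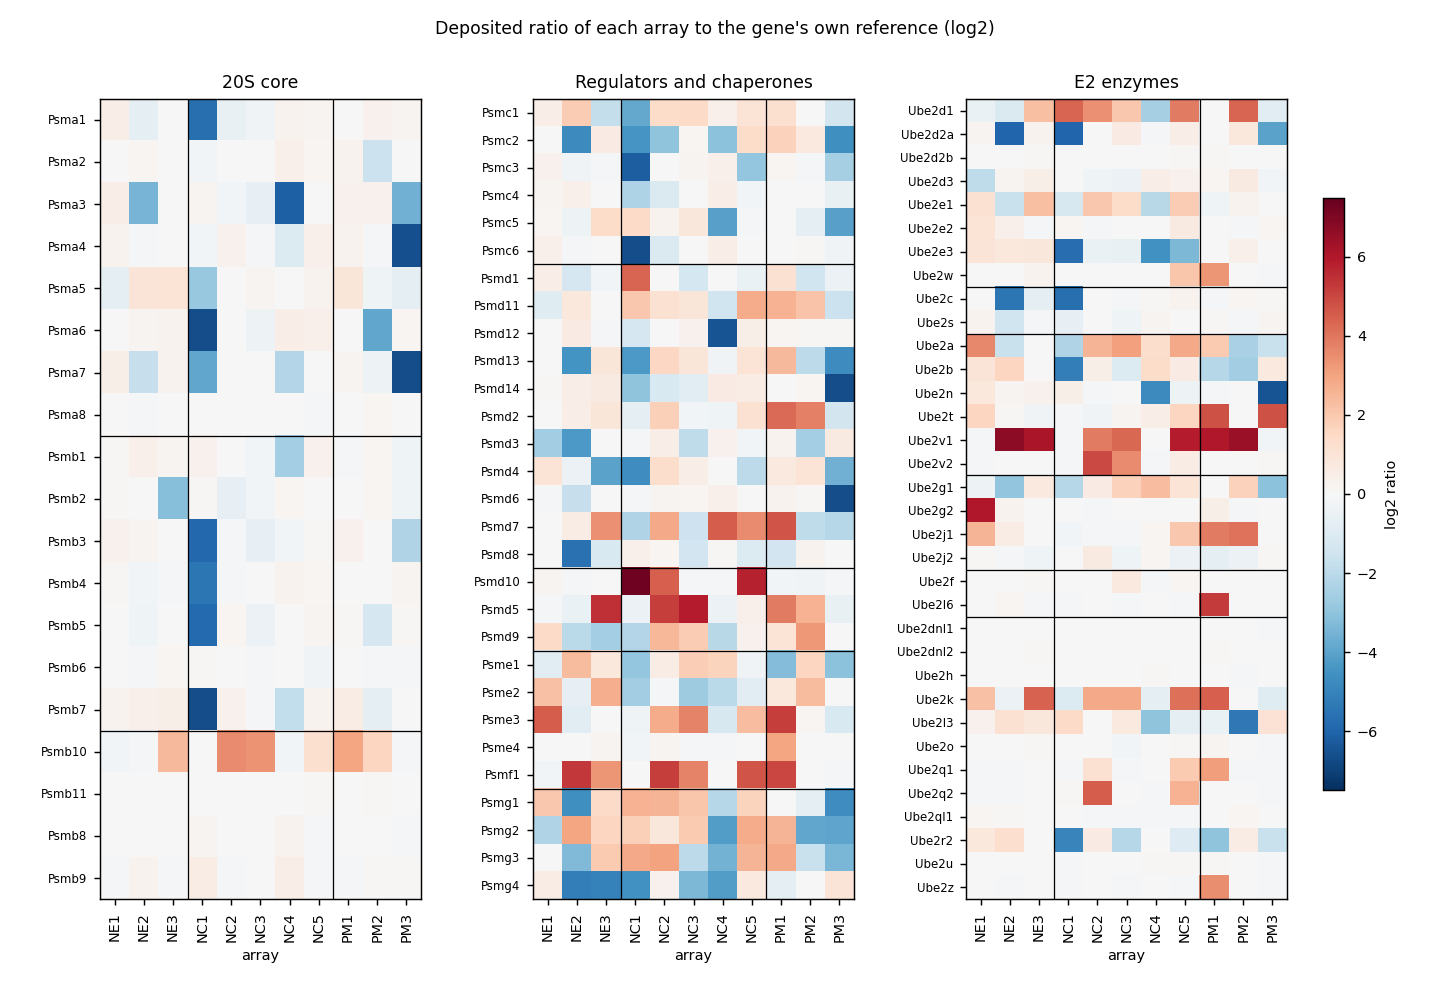
Log2 ratio to the probe's reference of each core, regulator and E2 gene (rows, grouped by role) on each of the 11 arrays (columns, grouped by tissue); blue is below the reference and red above it. Most core values sit near the reference, except for isolated deep lows, most of them on NC1, NC4 and PM3, and the highs of Psmb10. Regulators and E2 enzymes hold values in both directions in every tissue.

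The alpha ring, which forms the gate of the barrel, held genes that were flat but for 1 or a few arrays. Psma1 was 1.44, 0.626 and 1.00 on the NE arrays, 0.0201, 0.679, 0.818, 1.21 and 1.15 on the NC arrays, and 1.00, 1.23 and 1.15 on the PM arrays. NC1 alone was low, and the other 10 arrays of the 3 tissues overlapped. Psma6 was 1.00, 1.15 and 1.22 on NE, 0.01, 0.991, 0.77, 1.39 and 1.29 on NC, and 1.01, 0.0668 and 1.12 on PM. Here NC1 and PM2 were low, so the lows fell in 2 tissues. Psma3 was 1.40, 0.0886 and 1.00 on NE, 1.14, 0.877, 0.649, 0.0146 and 1.01 on NC, and 1.23, 1.25 and 0.0811 on PM, with 1 low array in each tissue. Psma7 was 1.35, 0.302 and 1.21 on NE, 0.0678, 1.00, 1.03, 0.221 and 1.01 on NC, and 1.15, 0.774 and 0.01 on PM. Its lows lay on NC1, NC4 and PM3. Psma4 was low on PM3 (0.0103) and lay between 0.498 and 1.28 on the other 10 arrays, and Psma5 was low on NC1 (0.139) and lay between 0.591 and 2.04 elsewhere. Psma2 reached 0.321 on PM2 and was otherwise near the reference. Psma8, the testis form of an alpha subunit, ran from 0.928 to 1.09. In all, 6 of 8 alpha genes were low somewhere and 0 were high anywhere.

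The beta ring, which carries the proteolytic sites, behaved alike. Of its 7 standard subunits, 6 were low on some array, 5 of them on 1 array only (3 of 8 in the alpha ring), and 0 were high. Psmb7, which encodes the trypsin-like subunit, was 1.19, 1.31 and 1.35 on NE, 0.01, 1.23, 0.917, 0.276 and 1.21 on NC, and 1.49, 0.591 and 1.00 on PM. NC1 was low, NC4 fell just short of the limit, and the other arrays overlapped. Psmb5, the chymotrypsin-like subunit, was 1.00, 0.79 and 1.00 on NE, 0.0179, 1.13, 0.734, 0.986 and 1.13 on NC, and 1.05, 0.416 and 1.05 on PM, so that it too was low on NC1 alone. Psmb6, the caspase-like subunit, was 1.01, 0.908 and 1.10 on NE, 1.06, 0.962, 0.931, 1.00 and 0.844 on NC, and 1.00, 0.955 and 0.901 on PM. Unlike its catalytic partners it did not leave the 2-fold band on NC1 or on any other array. The non-catalytic Psmb4 was low on NC1 (0.0236) and Psmb3 on NC1 (0.0172) and PM3 (0.21). Psmb1 was low on NC4 (0.173) and Psmb2 on NE3 (0.109).

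The beta subunits that replace the standard ones in the immunoproteasome and thymoproteasome showed a different pattern. Psmb8 ran from 0.898 to 1.22, Psmb9 from 0.895 to 1.5 and Psmb11, the thymic form, from 0.962 to 1.07. The files hold no detection call, so a flat ratio does not show whether a gene was expressed. Psmb10, the immunoproteasome counterpart of Psmb7, was 0.863, 0.894 and 5.4 on NE, 1.00, 11.9, 10.4, 0.864 and 2.30 on NC, and 7.91, 3.00 and 0.921 on PM. It was the only core gene that was high on any array, with 1 high array on NE, 2 on NC and 1 on PM.

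Taken by array, the core lows were concentrated. NC1 held 8 of the 18 low core values, NC4 held 3 and PM3 held 4, so that these 3 arrays held 15 of the 18. The remaining 3 lay on NE2, NE3 and PM2. Of all genes, 2.52% were low on NC1, 1.49% on NC4 and 2.27% on PM3, against 0.336% to 2.03% on the other 8 arrays. The core genes low on NC1 were Psma1, Psma5, Psma6, Psma7, Psmb3, Psmb4, Psmb5 and Psmb7, while Psma2, Psma3, Psma4, Psmb1, Psmb2 and Psmb6 lay between 0.862 and 1.26 on the same array. Without NC1, the number of core genes low somewhere was 7 in place of 12, and without NC1, NC4 and PM3 it was 3. These 3 arrays are also those with the fewest high genes over the whole array, and the part of that in the core lows was not tested.

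**Figure D2:**
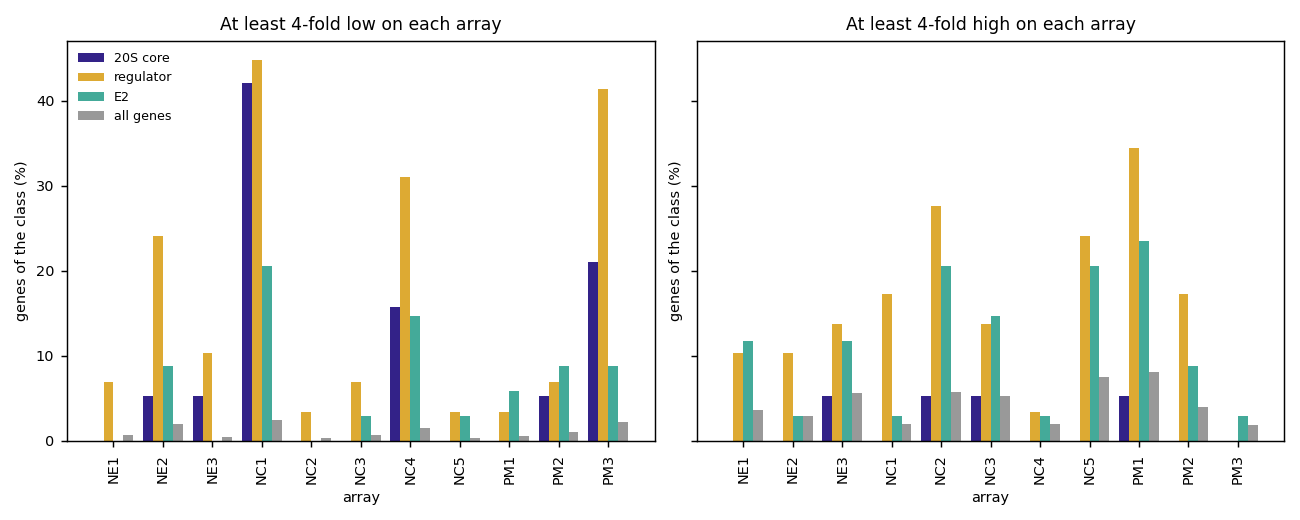
Percentage of core, regulator and E2 genes, and of all 19938 genes, at least 4-fold low (left) or at least 4-fold high (right) on each of the 11 arrays. NC1, NC4 and PM3 hold most of the low values of the 3 classes, and PM1, NC2 and NC5 the most genes high.

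The 6 ATPases of the 19S regulator form the ring that unfolds the target. Each was low on at least 1 array and 0 were high. Psmc2 had the most lows of the 6: it was 1.00, 0.0372 and 1.51 on NE, 0.0463, 0.125, 1.09, 0.117 and 2.57 on NC, and 3.31, 1.65 and 0.0409 on PM. Each tissue thus held arrays at or above the reference and an array below 0.05. Psmc6 was 1.31, 0.949 and 0.997 on NE, 0.01, 0.468, 0.98, 1.43 and 0.991 on NC, and 1.00, 1.05 and 0.818 on PM, low on NC1 alone. Psmc3 was low on NC1 (0.0136), NC5 (0.135) and PM3 (0.18), Psmc5 on NC4 (0.0587) and PM3 (0.0586), and Psmc1 and Psmc4 on NC1 only (0.0705 and 0.2).

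Of the 11 non-ATPase subunits of the 19S particle, 8 were low and 5 were high on some array. Psmd14, the enzyme that cuts ubiquitin from the target as it enters, was 1.07, 1.39 and 1.56 on NE, 0.121, 0.461, 0.583, 1.51 and 1.48 on NC, and 1.00, 1.12 and 0.01 on PM, with its lows on NC1 and PM3. Psmd4, a ubiquitin receptor, was 2.05, 0.743 and 0.0623 on NE, 0.039, 2.52, 1.40, 1.00 and 0.256 on NC, and 1.65, 2.06 and 0.081 on PM, with 1 low array in each tissue. Psmd13, a lid subunit, was 1.00, 0.044 and 1.90 on NE, 0.0515, 2.94, 1.89, 0.835 and 2.07 on NC, and 5.35, 0.26 and 0.0374 on PM, low on 1 array of each tissue and high on PM1. Psmd7, the structural partner of Psmd14 in the lid, was 1.00, 1.5 and 10.9 on NE, 0.207, 7.23, 0.335, 23.3 and 11.5 on NC, and 26.0, 0.268 and 0.231 on PM. It was high on 5 arrays over the 3 tissues and, unlike most of the genes, was high on NC4. The large scaffold subunits Psmd1 and Psmd2 were not low on any array. Psmd1 was high on NC1 only (20.3, against 0.356 to 2.24 on the other 10), and Psmd2 was high on PM1 (19) and PM2 (13.6) but not on PM3 (0.382). Psmd6 and Psmd12 were each low on 1 array, Psmd6 on PM3 (0.01) and Psmd12 on NC4 (0.0115). Psmd8 was low on NE2 (0.0206), and Psmd3 on NE1 (0.162), NE2 (0.051) and PM2 (0.171). Psmd11 ranged from 0.334 on PM3 to 6.80 on NC5, and was high on NC1, NC5, PM1 and PM2.

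Assembly chaperones hold partly built rings together until the particle is complete. They had the widest median spans of any group, 6.86 on the log2 scale for the 4 chaperones of the core and 6.44 for the 3 of the 19S particle. Psmd10, known as gankyrin, a chaperone of the ATPase ring, was 1.14, 0.949 and 1.00 on NE, 155, 22.1, 0.938, 0.888 and 55.1 on NC, and 0.883, 0.828 and 0.911 on PM. It was high on 3 of the 5 crest arrays and between 0.828 and 1.14 on the other 8 arrays, so the crest overlapped both other tissues through NC3 and NC4. Psmd5, which acts on the same ring, was 0.913, 0.706 and 44.4 on NE, 0.725, 37.0, 59.5, 0.728 and 1.31 on NC, and 14.9, 6.0 and 0.685 on PM, with high arrays in every tissue. Psmd9 ran from 0.173 on NE3 to 9.61 on PM2.

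The 4 chaperones of the core, Psmg1 to Psmg4, were each low on at least 2 arrays, and all 4 were low on NC4. Psmg1 was 4.04, 0.0408 and 2.75 on NE, 6.12, 5.78, 4.14, 0.224 and 3.15 on NC, and 1.00, 0.591 and 0.0403 on PM. Its partner in the same heterodimer, Psmg2, was 0.208, 7.79 and 3.07 on NE, 3.46, 1.81, 3.96, 0.0546 and 7.02 on NC, and 5.93, 0.067 and 0.0633 on PM. The pair was low together on NC4 and PM3, but on NE1 Psmg1 was high and Psmg2 low, and on NE2 the reverse. Psmg3 was 1.00, 0.0988 and 3.88 on NE, 7.29, 8.02, 0.252, 0.0845 and 5.94 on NC, and 7.16, 0.32 and 0.0926 on PM. Its own partner Psmg4 was 1.48, 0.0278 and 0.03 on NE, 0.0425, 1.25, 0.0971, 0.0549 and 1.66 on NC, and 0.604, 1.00 and 1.97 on PM. On NC1 Psmg3 was high and Psmg4 low.

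Cores can also be capped by activators other than the 19S particle, and Psmf1 (PI31) was first described as an inhibitor. All 5 of these genes were high on some array. Psme1 and Psme2 encode the alternating subunits of 1 ring, PA28 alpha-beta. Psme1 was 0.553, 5.14 and 1.73 on NE, 0.133, 1.5, 3.58, 3.18 and 0.82 on NC, and 0.106, 3.04 and 0.116 on PM. Psme2 was 4.57, 0.661 and 6.57 on NE, 0.164, 0.892, 0.156, 0.244 and 0.561 on NC, and 1.70, 5.18 and 1.00 on PM. Every crest array lay below every mesoderm array for Psme2, and NC2 overlapped NE2. On a probe assigned to both Psme2b and Psme2, not used here, NC2 (1.00) and NC5 (0.782) lay above PM3 (0.71). The partners parted on several arrays: on NC3 and NC4 Psme1 was above 3 while Psme2 was low, and on PM1 and PM3 Psme1 was low while Psme2 was not. Psme3, the nuclear activator, was high on NE1 (23.2), NC2 (7.02), NC3 (13.3), NC5 (4.94) and PM1 (36.5). Psme4 (PA200) was high on PM1 alone (7.79, against 0.879 to 1.16 on the other 10). Psmf1 was 0.884, 39.2 and 10.1 on NE, 1.00, 36.1, 13.2, 0.972 and 26.1 on NC, and 32.1, 1.03 and 0.953 on PM, which is 6 high arrays over the 3 tissues and 5 arrays near the reference, with nothing between.

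E2 enzymes of the D and E classes work with a wide range of E3 ligases. Among them Ube2e3 stood apart in the crest, but it passed no tissue test. It was 1.95, 1.71 and 1.78 on NE, 0.0191, 0.721, 0.689, 0.0437 and 0.0986 on NC, and 1.00, 1.29 and 0.974 on PM. NC1, NC4 and NC5 were low. Of these, NC1 and NC4 also had 28 and 17 of the 85 genes low (2.52% and 1.49% of all genes). For Ube2e3 all 5 crest arrays were below all 6 others. Its close relatives did not share that order: Ube2e1 was 2.20, 0.32 and 4.75 on NE, 0.442, 4.10, 2.62, 0.237 and 3.78 on NC, and 0.803, 1.18 and 1.00 on PM, and Ube2e2 ran from 0.916 to 2.01 over all 11 arrays. Ube2d1 was 0.705, 0.463 and 4.83 on NE, 20.6, 10.9, 4.07, 0.177 and 15.1 on NC, and 1.00, 20.5 and 0.572 on PM, with 4 of 5 crest arrays high but high arrays in the other tissues too. Ube2d2a was low on NE2 (0.0165), NC1 (0.0164) and PM3 (0.061) and lay between 0.943 and 1.71 on the other 8. Ube2d3 was 0.264 on NE1 and near the reference elsewhere, but its probes disagreed: the other two were low on NC1 (0.0386 and 0.101, against 1.00) and on NE1 (0.143 and 0.149). Ube2w, which puts ubiquitin on the N-terminus of its targets, was high on NC5 (4.28) and PM1 (9.90) only.

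The E2 enzymes of DNA damage and chromatin all left the 2-fold band. Ube2n, which builds lysine-63 chains together with Ube2v1 or Ube2v2, was 1.70, 1.16 and 1.24 on NE, 1.37, 0.888, 1.01, 0.0372 and 0.76 on NC, and 0.927, 1.00 and 0.0111 on PM. Only NC4 and PM3 were low, and all PM arrays lay below all NE arrays. Its partner Ube2v1 was 0.947, 107 and 70.5 on NE, 0.901, 14.8, 19.7, 1.00 and 58.4 on NC, and 63.9, 90.0 and 0.861 on PM, high on 7 arrays. Another probe for Ube2v1 stayed between 0.882 and 1.07 on all arrays, so its probes disagreed. Ube2v2 was high on NC2 (30.6) and NC3 (11.7) only, and its other probes moved differently. Ube2a and Ube2b, the mouse counterparts of yeast Rad6, did not move as a pair: Ube2a was 12.1, 0.317 and 1.00 on NE, 0.206, 5.79, 8.33, 2.52 and 7.10 on NC, and 3.83, 0.189 and 0.316 on PM. Ube2b was 1.93, 3.02 and 1.00 on NE, 0.027, 1.35, 0.494, 2.63 and 1.54 on NC, and 0.223, 0.166 and 1.64 on PM. Both were low on NC1 and PM2. Ube2t, the E2 of the Fanconi anaemia pathway, was 3.02, 1.06 and 0.817 on NE, 0.93, 0.845, 1.17, 1.39 and 3.10 on NC, and 27.6, 1.00 and 27.2 on PM. PM1 and PM3 were far above all other arrays and PM2 was not.

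Ube2c and Ube2s, which start and extend ubiquitin chains for the anaphase-promoting complex (APC/C), are often read as marks of dividing cells. Ube2c was 1.00, 0.023 and 0.62 on NE, 0.0201, 1.01, 0.927, 1.07 and 1.19 on NC, and 0.918, 1.10 and 1.08 on PM. Ube2s fell out of the 2-fold band on NE2 only (0.352) and ran from 0.642 to 1.18 on the other arrays. NE2 was thus the lowest array of Ube2s and NC1 of Ube2c.

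Some E2 enzymes act at the endoplasmic reticulum, where misfolded proteins are drawn out for degradation. Of these 4 genes, 3 were high and 1 was low on some array. Over all genes, 21.7% were high and 4.77% low on some array. Ube2g2 was 63.5, 1.18 and 1.03 on NE, 1.00, 0.952, 1.00, 0.965 and 0.992 on NC, and 1.34, 0.922 and 1.01 on PM, so NE1 alone was high. Ube2j1 was 5.95, 1.45 and 0.963 on NE, 0.875, 0.949, 0.926, 1.13 and 4.03 on NC, and 14.9, 17.1 and 1.00 on PM. Ube2g1 was low on NE2 (0.126), NC1 (0.231) and PM3 (0.119) and high on NC4 (4.92). Ube2j2 ran from 0.627 to 1.57. A probe assigned to both Gm5801 and Ube2j2, not used here, did not stay in that range. It was low on NE1 (0.057), NE2 (0.127), PM1 (0.0503) and PM2 (0.0468) and high on NC1 (4.17).

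Of the other E2 enzymes, Ube2k, which extends lysine-48 chains, was 4.52, 0.725 and 21.2 on NE, 0.485, 7.16, 7.03, 0.607 and 17.4 on NC, and 22.1, 1.00 and 0.528 on PM. Ube2l3, the partner of HECT and parkin-type ligases, was 1.26, 2.24 and 1.81 on NE, 2.71, 1.00, 1.67, 0.124 and 0.609 on NC, and 0.715, 0.024 and 2.14 on PM, low on NC4 and PM2. Its probes disagreed by up to 7.64 on the log2 scale. The other probes of Ube2l3 were near the reference on NC4 (1.00 and 1.00) and PM2 (1.42 and 1.40). They were low on NC1 (0.0191 and 0.0136), where the chosen probe was not. Ube2r2, an E2 of cullin ligases, was 1.73, 2.42 and 1.03 on NE, 0.0322, 1.56, 0.225, 1.00 and 0.515 on NC, and 0.124, 1.45 and 0.313 on PM. Ube2q1 was high on PM1 (8.96) and Ube2q2 on NC2 (23.2) and NC5 (6.15). Ube2l6, which carries the ubiquitin-like ISG15, was high on PM1 alone (38.4, against 0.904 to 1.10 on the other 10), as was Ube2z (11.3, against 0.922 to 1.04). PM1 is the array on which the 6 erythroid genes were high, and the part of that in these values was not tested. Ube2h, Ube2o, Ube2u, Ube2ql1, Ube2f, Ube2d2b, Ube2dnl1 and Ube2dnl2 stayed near the reference on all arrays. A probe assigned to both Gm5434 and Ube2f, not used here, was high on NE3 (45.7), NC3 (56.1) and NC5 (60.3).

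**Figure D3:**
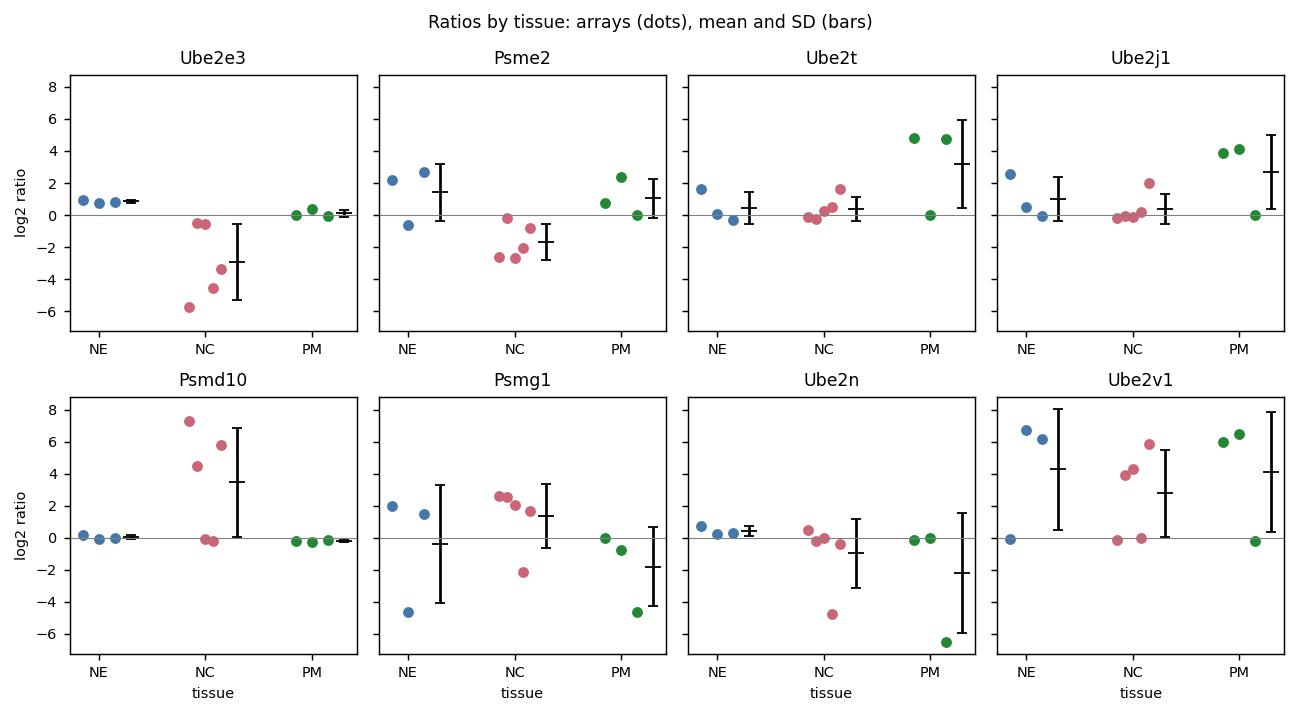
Log2 ratio to the reference of 8 genes on every array, with arrays grouped by tissue, 1 point per array, and the mean and SD of each tissue as black bars. Ube2e3 is lower on all 5 crest arrays than on the 6 others, Psmd10 is high on 3 crest arrays only, Ube2n is low on NC4 and PM3, and Ube2v1 is high in all 3 tissues.

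Over all values of a class, 179 of 209 core values (85.6%) lay near the reference, 160 of 319 regulator values (50.2%) and 278 of 374 E2 values (74.3%), against 92.3% over all genes. NC1, NC4 and PM3 held 34 of 53 low regulator values and 15 of 25 low E2 values, and over all genes they held 1252 low values against 1263 on the other 8 arrays. High values fell elsewhere: the same 3 arrays held 6 of 50 high regulator values and 3 of 42 high E2 values. PM1 had 20 of the 85 genes high (8.11% of all genes were), NC2 had 17 (5.81%) and NC5 had 15 (7.52%). NE1 had 7 (3.69%), NE2 4 (2.91%), NE3 10 (5.63%), NC1 7 (2.06%), NC3 10 (5.34%) and PM2 9 (4.03%), whereas PM3 had only Ube2t (1.91%) and NC4 had Psmd7 and Ube2g1 (2.06%). Low values ran the other way over the arrays. NC1 had 28 of the 85 low (2.52% of all genes), PM3 19 (2.27%), NC4 17 (1.49%) and NE2 11 (2.03%). The rest had 6 or fewer: PM2 6 (1.1%), NE3 4 (0.507%), NC3 3 (0.692%), PM1 3 (0.542%), NE1 2 (0.757%), NC5 2 (0.336%) and NC2 1 (0.366%).

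Other genes of the pathway, from lists drawn up for this purpose, were also often high or low on some array, where 21.7% of all genes were high and 4.77% low. None of the E1, proteasome partner, shuttle, APC/C, cullin-RING or additional E2 genes passed the tissue test in any comparison. Of 7 E1 genes, 3 were high on some array and 0 low; Nae1, which activates Nedd8 with Uba3, was high on NE3 (75.1), NC2 (34.9), NC5 (55.2) and PM1 (33.1). Sae1, of the SUMO E1, was 0.643, 0.892 and 0.771 on NE, 1.00, 16.7, 0.693, 0.616 and 1.51 on NC, and 4.28, 15.2 and 1.18 on PM. Of 11 partners of the proteasome, 4 were high and 5 low somewhere. Usp14 and Uchl5, deubiquitinating enzymes of the 19S particle, were low on 5 and 4 arrays, and Sem1, a small lid subunit, was low on NC1 (0.0137) and PM3 (0.0119) only. Nfe2l1, the activator named above, ran from 0.665 to 1.67, and Nfe2l2 was high on PM1 alone (27.5). Of 9 shuttle and segregase genes, 8 were high and 0 low on some array. Of 16 APC/C genes, 10 were high and 4 low, and Cdc20, an activator of that complex, was low on NE2 (0.0435) and NC4 (0.0638). Of 16 cullin-RING genes, 8 were high and 2 low. No ubiquitin gene was among the genes measured here.

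The first comparison asked how neural crest differed from neuroepithelium, the tissue that it leaves. Of the 85 genes, 0 passed at an adjusted p under 0.05 (limma with Benjamini-Hochberg adjustment over all genes), where 0.0301% of all genes did, and the adjusted p of each of the 85 was 1.00. At an unadjusted p under 0.05 there were 3 (2.79% of all genes). The arrays of the tissues did not overlap for 3 genes that were lower in crest (Ube2e3, Ube2g2 and Ube2ql1; 1.53% of all genes) and for 0 that were higher (1.45%). In Ube2e3 and Ube2g2 the difference was also over 1 on the log2 scale (0.366% of all genes). Ube2e3 was lower by a log2 difference of -3.77 (SE 1.16, 95% interval -6.41 to -1.14), and -2.31 without NC1, NC4 and PM3. Psme2 differed by -3.10 (SE 0.93, 95% interval -5.21 to -0.99), although NC2 overlapped NE2. For Ube2g2 the difference of -2.12 (SE 1.18) came from NE1 (-0.17 without it), and for Ube2ql1 it was small (-0.20, SE 0.05). Ube2r2 (-2.19, SE 1.27) and Psmb7 (-1.97, SE 1.47) overlapped, and Psmb7 was at -0.21 without NC1, NC4 and PM3. The largest positive differences were those of Psmd10 (3.42, SE 1.68), Ube2d1 (2.03, SE 1.79), Psmd3 (2.01, SE 1.08), Psmd8 (1.88, SE 1.14) and Ube2v2 (1.79, SE 1.15), all with overlapping arrays. Without NE2, where both were lowest, Psmd8 was at 0.21 and Psmd3 at 1.02, and Ube2v2 was at 1.00 without NC2. For Ube2v2 the sign depended on the probe: it was -0.73 with the probe of lowest mean.

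By class, the median log2 difference between crest and neuroepithelium was -0.34 over the 19 core genes, 0.07 over the 29 regulators and -0.01 over the 34 E2 enzymes, with 0.00 over all genes. Of the core genes, 13 of 19 were lower in crest (49.8% of all genes were). The core median moved with single arrays: it was -0.04 without NC1, -0.08 without NC4, -0.09 without NE1 and -0.68 without NC5. The regulator median changed sign, from 0.58 without NC4 and 0.57 without NC1 to -0.12 without NC5, -0.14 without NE2, -0.17 without NC2 and -0.20 without NC3. All 6 ATPases of the 19S particle were lower in crest, with a median of -0.76, as were 6 of the 8 alpha genes and 6 of the 7 standard beta genes. Without NC1 these counts were 4 of 6 (median -0.33), 6 of 8 (median -0.11) and 4 of 7 (median -0.10), and without NE1 4 of the 6 ATPases were lower. All 3 chaperones of the 19S particle were higher, with a median of 1.11, and 2 of 3 were without NE1, NE2, NC2 or NC3. Of the 11 non-ATPase subunits, 8 were higher in crest (median 0.73), and 6 were without NE2 (median 0.17). Of the 4 core chaperones, 3 were higher (median 1.02), and 2 were without NE2 (median -0.18). No single gene of these groups passed the test.

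The second comparison set crest against the paraxial mesoderm that lies beside its path. Again 0 of the 85 passed (0.01% of all genes), and 4 had an unadjusted p under 0.05 (2.89% of all genes). Arrays did not overlap for Psme2, Ube2e3 and Ube2ql1, all lower in crest (1.2% of all genes), and for 0 genes higher in crest (1.46%). Psme2 and Ube2e3 also differed by over 1 on the log2 scale (0.181% of all genes). On the unused probe that Psme2 shares with Psme2b, the crest and mesoderm arrays did overlap. Ube2e3 differed by -3.03 (SE 1.16, 95% interval -5.67 to -0.39) and Psme2 by -2.71 (SE 0.93, 95% interval -4.82 to -0.60). Both tests share the crest arrays with the first comparison, so a low crest value enters both. Ube2t differed by -2.79 (SE 1.08), which rested on PM1 and PM3, Ube2j1 by -2.30 (SE 1.04) and Psmg4 by -2.29 (SE 1.72). In the other direction stood Psmd10 (3.65, SE 1.68), Psmg1 (3.14, SE 1.83), Psmg2 (2.42, SE 2.12), Psmd6 (2.24, SE 1.41) and Ube2a (2.21, SE 1.65). The Psmd6 difference came from PM3, and without that array it was -0.030. Psmg1 was at 1.72 without PM3, and Psmg2 at 1.32 without PM3 and 1.36 without PM2. Ube2a was at 1.36 without PM2. The class medians were -0.07 for the core, 0.13 for the regulators and 0.01 for E2 enzymes; the regulator median ran from -0.66 without PM3 to 0.81 without PM1, and the core median from -0.43 without PM3 to 0.05 without NC1 or PM1.

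The third comparison set paraxial mesoderm against neuroepithelium. None of the 85 passed (0.015% of all genes), and 0 had an unadjusted p under 0.05 (2.48% of all genes). Arrays did not overlap for Psmd10, Ube2e3 and Ube2n, lower in mesoderm (4.02% of all genes), and for 0 that were higher (2.82%). Of these only Ube2n differed by over 1 on the log2 scale (0.898% of all genes), by -2.63 (SE 1.87), and without PM3 it was -0.48. Other negative differences were those of Psmd14 (-2.57, SE 1.72), Psmg2 (-2.54, SE 2.37), Ube2l3 (-2.37, SE 1.62) and Psme1 (-2.35, SE 1.63). Psmd14 was at -0.32 without PM3 and Ube2l3 at -0.48 without PM2, Psmg2 was at -1.44 without PM3, and Psme1 at -1.52 without PM1. The low value of Ube2l3 on PM2 was that of the chosen probe, and its other probes were near the reference there. The positive ones were Psmg4 (3.30, SE 1.92), Ube2t (2.72, SE 1.21), Psmd9 (2.45, SE 1.61), Ube2c (2.09, SE 1.82) and Psmd8 (1.88, SE 1.28), of which Ube2c was at 0.39 and Psmd8 at 0.21 without NE2, and Psmd9 was at 1.53 without PM2. Class medians were -0.07, -0.23 and -0.01 for core, regulators and E2 enzymes, and the regulator median ran from -0.59 without PM1 to 0.38 without PM3.

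An F test over the 3 tissues passed 0 of the 85 genes (0.0301% of all genes), with 3 at an unadjusted p under 0.05 (2.57% of all genes). A p that misses the threshold does not show that the tissues were alike. The standard errors ran above 1 on the log2 scale for most of the genes named here. They leave room for differences of several fold.

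**Figure D4:**
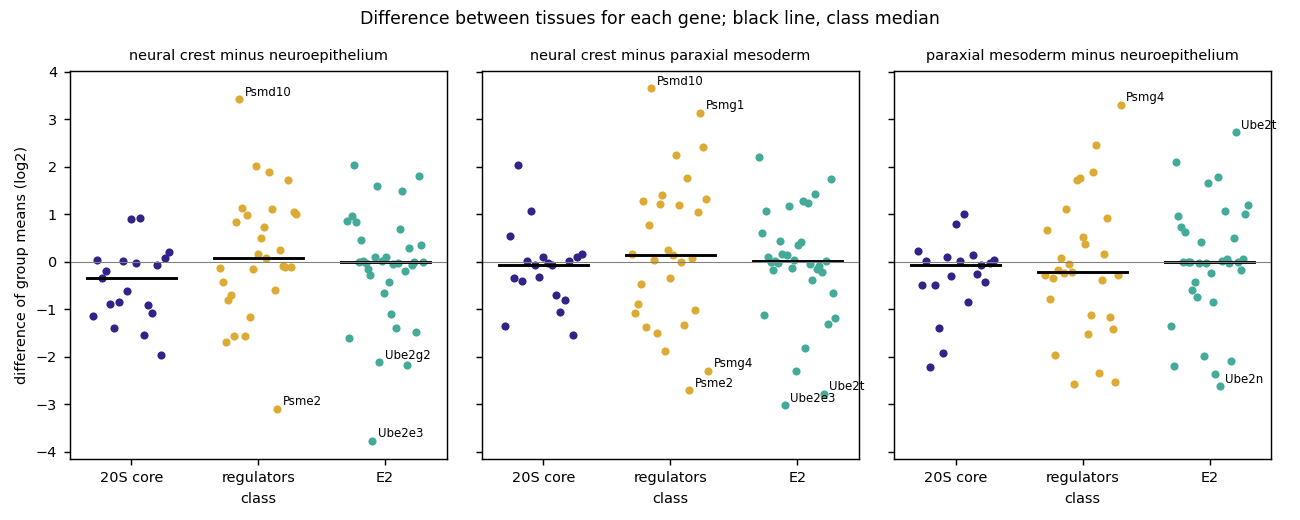
Difference of tissue means (log2) for each core, regulator and E2 gene in the 3 comparisons, with 1 point per gene, class medians as black lines and some genes labelled. Points of all 3 classes lie on both sides of 0 in each comparison, Ube2e3 is the lowest and Psmd10 the highest in both crest comparisons, and 0 genes passed the test.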

How the data were processed

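The deposited values are linear ratios per probe on 11 arrays; per the submitters' processing notes, RMA and the mm9 build were used, with no version given, and no header or label explains the division by a reference. By inference from the values, the reference was close to the probe's median over 9 arrays. Of those 9, 1 may not be among the arrays given here. A column median of 1 was found on 8 of the 11 arrays. On one of those 8, 76 of the 85 genes were at exactly 1 (within 1e-05). Of 35557 probes, 28856 had values and 21789 carried 1 symbol in the platform annotation. The probe with the highest mean log2 ratio stood for its gene, with no filter or pseudocount. The lowest ratio in the table is 0.01, which 6 values of these genes share.

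Log2 ratios were fitted with limma 3.58.1 (lmFit and eBayes, R 4.3.3) as 3 tissue means over 11 arrays, with Benjamini-Hochberg adjustment over 19938 genes and a threshold of 0.05; the code was tested on simulated data. Genes were named where the arrays of the tissues did not overlap, where they were among the 5 largest differences in each direction, or among the 5 widest spans of a class. The genes and lists were chosen with earlier results of these data known. Same-numbered arrays of different tissues did not deviate together (9 pairs, r from -0.15 to 0.050), and the main fit used no pairing. With so few arrays, such correlations cannot exclude shared embryos or litters, which the labels do not state. Alternatives covered the variance prior, pseudocount, low-value filter, scaling, probe choice, array weights, the replicate block and leaving out arrays. 5 probes with several symbols were left out.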

Additional observations from a re-analysis of the deposited data

Results flagged for a closer look

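In the 5 crest arrays, a single array stood apart from the other 4 for 8 of the 31 genes named by the rule, judged by its gap to the nearest array over the whole range (above 0.71). Chance alone gives such a gap in about 1 in 20 groups, but the 31 genes were named partly for wide spans and large differences, so their number is not to be read against that. Over all genes, 2991 of 19938 had such a gap. Among the 8 named genes with such a gap, the single array was low for 7, on NC1 for 3 and on NC4 for 4. On NC1, Psma6 was 0.01 (0.77 to 1.39 on the other crest arrays), Psmc6 was 0.01 (0.468 to 1.43) and Ube2c was 0.0201 (0.927 to 1.19). On NC4, Psma3 was 0.0146 (0.649 to 1.14), Ube2n was 0.0372 (0.76 to 1.37), Psmg2 was 0.0546 (1.81 to 7.02) and Psmg1 was 0.224 (3.15 to 6.12). Ube2j1 was high on NC5, at 4.03 (0.875 to 1.13). The groups of 3 arrays were not tested in this way.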

How the results depend on the processing

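None of the 85 genes passed in any of the 3 comparisons under any of 24 settings, nor by the F test under 23. The setting that left out genes with a ratio under 0.1 tested only 53 of the 85. The lowest adjusted p over those settings (limma) was 0.549 for crest against neuroepithelium, 0.128 for crest against mesoderm, 0.223 for mesoderm against neuroepithelium and 0.215 for the F test. With the replicate block, 0 of the 85 passed. Of all genes, 6, 3 and 2 passed in the 3 comparisons and 5 by the F test, against 6, 2, 3 and 6 in the main fit. The block was fitted without NC4 and NC5, which have no same-numbered arrays in the other tissues, and the main fit included them. The counts therefore differ in arrays as well as in the block, and the part of each was not tested. Over all settings, the number of all genes that passed ran from 2 (a trend in the variance prior) to 19 (without NE2) for crest against neuroepithelium, from 0 (the trend) to 43 (without PM3) for crest against mesoderm, from 2 (the trend) to 39 (without PM3) for mesoderm against neuroepithelium and from 3 (the trend) to 42 (without PM3) for the F test. Signs turned for Ube2v2 in crest against neuroepithelium with the probe of lowest mean (-0.73) and for Psmd6 in crest against mesoderm without PM3 (-0.030) and without NC1, NC4 and PM3 (-0.037). Leaving out 1 array at a time, the Psmd6 difference ran from -0.030 to 3.43. The low value on PM3 (0.01) set its sign.

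Leaving out NC1, NC4 and PM3, chosen after seeing the data, took the core genes low on some array from 12 to 3 and the regulators from 21 to 13. Leaving out 1 array at a time gave 7 to 12 for the core, with 7 without NC1, and 18 to 21 for the regulators. The core genes high on some array went from 1 to 2 under quantile normalization and at a 2-fold limit, and the regulators high from 16 to 9 at an 8-fold limit. The limits are the small number of arrays, the unknown number of cells behind each, a floor at 0.01 and ratios that carry no level or detection call.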
